A study of Mus musculus with 7 samples.

Results

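SR proteins, heterogeneous nuclear ribonucleoproteins (hnRNPs) and the RNA-binding proteins that set splicing in muscle were described in failing mouse hearts with and without empagliflozin (EMPA). Members were taken by gene symbol alone: every Srsf gene with a number, every gene beginning with Hnrnp, and the 10 factors Rbm20, Rbm24, Rbfox1, Rbfox2, Mbnl1, Mbnl2, Celf1, Celf2, Qk and Ptbp1. This gave 41 of the 53460 genes listed, made up of 11 SR proteins, 20 hnRNPs and 10 tissue factors, after 2 symbols ending in -ps were left out. The SR proteins and hnRNPs are called general factors below, and Ptbp1, an hnRNP by its older name, was counted with the tissue factors.

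RNA sequencing was performed on heart tissue of wild-type C57BL/6NCrSlc mice (C57BL/6 in the labels), all of which had undergone surgical banding of the aortic arch (transverse aortic constriction, TAC), which makes the left ventricle pump against a raised pressure. The TAC group (n = 3) had no drug, and the TAC+EMPA group (n = 4) was fed chow mixed with empagliflozin, an inhibitor of the renal glucose transporter SGLT2, for 5 days from 2 weeks after TAC. The labels place the operation at 12 weeks of age and give 14 weeks as the age of every mouse, whereas the methods of the study name a younger age at operation. No sham-operated libraries were used here, and the samples were pieces of heart with all of their cell types, so that in these bulk values fewer cells of a type and less RNA per cell cannot be told apart.

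Splicing factors bind short motifs in pre-mRNA and decide which exons are kept. SR proteins carry arginine-serine repeats and mostly favour inclusion of the exons they bind, whereas many hnRNPs coat pre-mRNA and repress nearby splice sites, and both families are made by nearly every cell. In heart and skeletal muscle a smaller group of factors is laid over them. RBM20 represses exons of titin and of calcium-handling genes and causes dilated cardiomyopathy when mutated, RBM24 and the RBFOX proteins promote muscle exons, MBNL and CELF proteins oppose each other in the shift from fetal to adult isoforms, QK binds introns of contractile genes, and PTBP1 represses muscle exons in undifferentiated cells. The deposited values are per gene, so that the levels of these factors were measured and the splicing of their targets was not.

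The unit was FPKM, fragments scaled by transcript length and by library size, which allows levels of different genes to be set side by side. Fold changes are on the log2(FPKM + 1) scale, as TAC+EMPA minus TAC, and were fitted with limma over the 12391 genes with a mean of at least 1 FPKM. Of the members 40 passed this filter. Srsf12 did not, with a highest value of 0.0351 FPKM in any library, and it is not considered further. The relative depth of the libraries, read from the step of 1 fragment in single-exon genes, ran from 1 to 2.24. From the same step, read on the longest coding transcript, Rbfox1 as the lowest tested member was covered by about 103 to 594 fragments per library, with a counting error of 4.10% to 9.87%, which leaves out all other sources of error.

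Among the 7 libraries 2 stood apart from their groups. For 76.9% of all genes tested, the value in TAC replicate 3 differed less from the average of TAC+EMPA than from that of the other TAC libraries. The first principal component of all genes held 46.7% of the variance and gave TAC replicate 3 a value of 16.1, near the range of 18.8 to 24.0 in TAC+EMPA and far from -45.4 and -56.0 in TAC replicates 1 and 2. The 10 endothelial markers examined showed the same grouping, with a summed level of 698 and 829 FPKM in TAC replicates 1 and 2 against 384 FPKM in TAC replicate 3 and 366 to 383 FPKM in TAC+EMPA. TAC+EMPA replicate 4 showed genes of other tissues. The skeletal muscle genes Myh4 and Tnni2 stood there at 27.7 and 60.4 FPKM against at most 0.346 and 2.64 FPKM elsewhere, and 8 hepatocyte genes summed to 74.3 FPKM against 4.54 to 15.7 FPKM. The cardiomyocyte markers fitted the label of heart in all libraries, with the exception that Myh6, the main myosin of adult mouse heart, is listed at 0 in TAC+EMPA replicate 1 and at 4213 FPKM or more in the others. Whether TAC replicate 3 matches its label could not be checked from the files, and it enters every TAC mean below. Fold changes are therefore also given without TAC replicate 3 as a description. That library was singled out by its measured values, so that its removal widens the differences by construction, and p-values and counts of that fit are no independent support.

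The tissue factors and the general factors differed in pattern. Of the 10 tissue factors, 9 had higher levels in TAC+EMPA and 1, Ptbp1, had a lower level, and the median log2 fold change was 0.80. The SR proteins had a median of -0.15 and the hnRNPs of -0.01, and the 30 general factors together of -0.05, beside a median of 0.03 over all genes tested. The summed FPKM of the general factors was 1484, 1475 and 1531 in TAC replicates 1, 2 and 3 and 1438, 1460, 1540 and 1547 in TAC+EMPA replicates 1 to 4, and these ranges overlapped. The summed FPKM of the 9 tissue factors other than Ptbp1 was 139, 130 and 283 in TAC and 308, 306, 360 and 294 in TAC+EMPA, so that TAC replicates 1 and 2 were well below the other 5 libraries.

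No member passed the limma test at an adjusted p under 0.05, and neither did any other gene, so that the background was 0% of genes higher and 0% lower. The adjusted p of the 40 members ran from 0.115 to 0.998. An unadjusted p under 0.05 was found for 12 members with higher and 8 with lower levels in TAC+EMPA, beside 2349 (19%) and 1827 (14.7%) of all genes tested. Of the 12 higher members 9 were tissue factors, 2 were hnRNPs and 1 was an SR protein. Of the 8 lower members 4 were SR proteins, 3 were hnRNPs and 1 was Ptbp1. The levels of the groups did not overlap in 7 higher and 4 lower members, beside 11.5% and 10.7% of all genes. With TAC replicate 3 left out, 16 members were higher and 8 lower at a limma adjusted p under 0.05, beside 29.8% and 23.6% of all genes. Then all 10 tissue factors passed (9 higher, 1 lower), as did 7 general factors in each direction out of 30. Leaving out the other TAC libraries had the opposite effect. At an unadjusted p under 0.05 the tissue factors went from 9 higher and 1 lower to 3 and 0 without TAC replicate 1 and to 4 and 0 without TAC replicate 2, and the general factors from 3 higher and 7 lower to 1 and 0 in both cases. Without a TAC+EMPA library there were 5 to 7 higher and 1 lower tissue factors (5 without replicate 3), and 1 to 2 higher and 2 to 4 lower general factors. Of all genes tested 774 higher and 853 lower ones were left without TAC replicate 1, and 870 and 867 without TAC replicate 2. Without a TAC+EMPA library 1333 to 1751 higher and 1259 to 1423 lower ones were left.

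**Figure D1:**
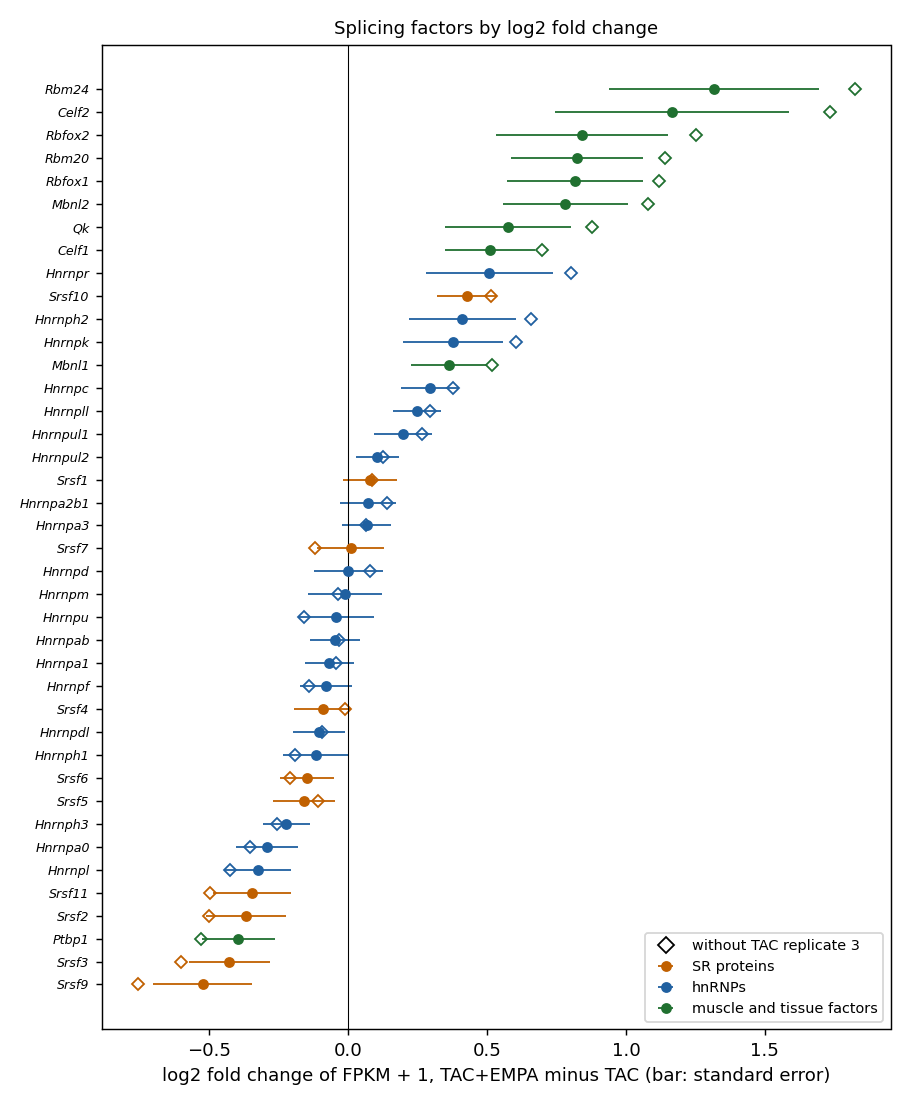
Log2 fold change of FPKM + 1, TAC+EMPA minus TAC, of the 40 splicing factors tested (x axis, one gene per row), with bars for the standard error of the limma fit over 7 libraries and open diamonds for the value without TAC replicate 3. The tissue factors other than Ptbp1 lie between 0.36 and 1.32 and their diamonds lie further right, whereas the general factors lie between -0.52 and 0.51 on both sides of 0.

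Rbm24, an RNA-binding protein of heart and skeletal muscle that promotes inclusion of muscle exons, had the largest fold change of the members. Its level was 25.5, 21.7 and 69.4 FPKM in TAC replicates 1, 2 and 3 and 87.7, 77.0, 109 and 74.1 FPKM in TAC+EMPA replicates 1 to 4. The groups did not overlap, although TAC replicate 3 was close to the lowest TAC+EMPA library and far from the other TAC libraries. The means were 38.9 ± 26.5 (SD, n = 3) and 86.9 ± 15.7 FPKM (SD, n = 4), a ratio of 2.23, and the log2 fold change was 1.32 (SE 0.38, limma adjusted p = 0.115). The exact permutation p was 0.0286 (two-sided, n = 3 and 4), which is the smallest that the 35 assignments of 7 libraries allow, and the log2 fold change without TAC replicate 3 was 1.82.

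Rbm20, the repressor of titin exons, and Mbnl2, one of the muscleblind proteins that favour adult isoforms, also had groups that did not overlap. Rbm20 stood at 14.4, 13.8 and 28.2 FPKM in TAC and at 28.8, 32.6, 33.9 and 34.2 FPKM in TAC+EMPA. Mbnl2 stood at 31.9, 32.0 and 60.3 FPKM in TAC and at 66.9, 68.3, 75.2 and 64.7 FPKM in TAC+EMPA. In both genes TAC replicate 3 was just below the lowest TAC+EMPA library, and the other TAC libraries were near one another and far lower. The log2 fold change was 0.82 for Rbm20 (SE 0.24) and 0.78 for Mbnl2 (SE 0.22), each with a limma adjusted p of 0.115 and an exact permutation p of 0.0286 (n = 3 and 4). Without TAC replicate 3 they were 1.14 and 1.08.

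Mbnl1, the other muscleblind protein of the heart, had a smaller difference. It was measured at 17.4, 17.0 and 24.2 FPKM in TAC and at 25.1, 23.7, 24.6 and 26.9 FPKM in TAC+EMPA, with means of 19.5 ± 4.03 (SD, n = 3) and 25.1 ± 1.33 FPKM (SD, n = 4). The groups overlapped only through TAC replicate 3, which lay above TAC+EMPA replicate 2. The log2 fold change was 0.36 (SE 0.14, limma adjusted p = 0.125), and 0.52 without TAC replicate 3.

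The RBFOX proteins bind the motif GCAUG beside muscle and neuronal exons. Rbfox1 was the lowest of the tested members, with 1.81, 1.77 and 4.25 FPKM in TAC and 4.57, 4.16, 6.16 and 5.56 FPKM in TAC+EMPA. Rbfox2 was several times higher, with 8.60, 7.91 and 20.8 FPKM in TAC and 19.7, 21.9, 25.1 and 18.1 FPKM in TAC+EMPA. In both, TAC replicate 3 fell within the range of TAC+EMPA, and TAC replicates 1 and 2 were below every TAC+EMPA library. The log2 fold change was 0.82 (SE 0.25) for Rbfox1 and 0.84 (SE 0.31) for Rbfox2, with limma adjusted p of 0.115 and 0.121, and without TAC replicate 3 it was 1.12 and 1.25.

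The CELF proteins, which act against MBNL at many exons and are abundant in the fetal heart, were on the same side as MBNL. Celf1 stood at 10.4, 9.31 and 15.01 FPKM in TAC and at 14.6, 17.5, 18.0 and 16.5 FPKM in TAC+EMPA, a log2 fold change of 0.51 (SE 0.16). Celf2 stood at 5.19, 3.83 and 16.9 FPKM in TAC and at 16.5, 19.0, 20.5 and 13.5 FPKM in TAC+EMPA, a log2 fold change of 1.17 (SE 0.42). Relative to the mean, the spread within TAC was the widest of the tissue factors in Celf2, where the SD of 7.16 FPKM was nearly as large as the mean of 8.62 FPKM. TAC replicate 3 exceeded the lowest TAC+EMPA library in both genes, and in Celf2 also the next lowest. The limma adjusted p was 0.117 for Celf1 and 0.120 for Celf2, and the log2 fold changes without TAC replicate 3 were 0.70 and 1.74.

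Qk encodes quaking, which binds introns and untranslated regions and is needed for contractile gene splicing in cardiomyocytes. Its level was 23.5, 22.8 and 44.2 FPKM in TAC and 43.7, 41.8, 47.7 and 40.7 FPKM in TAC+EMPA. TAC replicate 3 was higher than every TAC+EMPA library but replicate 3, and the log2 fold change of 0.58 (SE 0.23, limma adjusted p = 0.131) came from TAC replicates 1 and 2 alone. Measured against single TAC libraries it was 0.86, 0.90 and -0.03, and without TAC replicate 3 it was 0.88.

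Ptbp1, a repressor of muscle and neuronal exons that is usually low in differentiated muscle, was the one tissue factor with lower levels under EMPA. It stood at 29.8, 32.8 and 23.4 FPKM in TAC and at 22.7, 21.3, 22.1 and 19.3 FPKM in TAC+EMPA. The groups did not overlap, and again TAC replicate 3 was the TAC library next to TAC+EMPA. The log2 fold change was -0.40 (SE 0.13, limma adjusted p = 0.117, exact permutation p = 0.0286, n = 3 and 4) and -0.53 without TAC replicate 3. An antisense gene at the same locus, Gm17134, had a mean of 9.75 FPKM, and whether strand was used in the counting is not stated, so that fragments of these genes may be mixed.

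**Figure D2:**
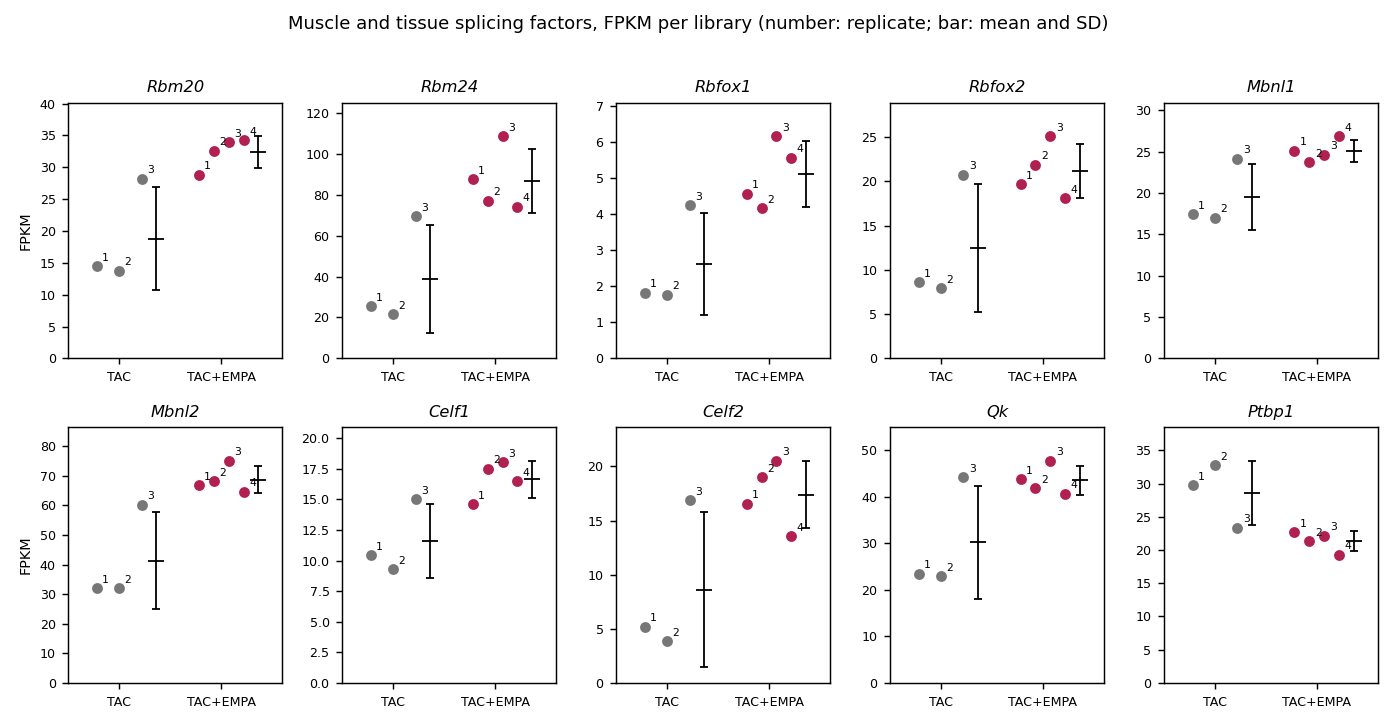
FPKM of the 10 tissue factors in each library (grey, TAC replicates 1 to 3; red, TAC+EMPA replicates 1 to 4), with the mean and SD of each group as a bar beside its points, each panel on its own axis from 0. In 9 panels TAC replicates 1 and 2 lie below all other libraries and TAC replicate 3 lies at or near the TAC+EMPA points, and in the panel of Ptbp1 this order is turned around.

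TAC replicate 3 was closer to TAC+EMPA than to the other TAC libraries in 10 of 10 tissue factors and in 20 of 30 general factors, beside 76.9% of all genes tested. The median log2 fold change of the tissue factors was 1.09 and 1.10 against TAC replicates 1 and 2 alone and 0.09 against TAC replicate 3 alone. That of the general factors was -0.05, -0.02 and -0.06. Thus the difference of the tissue factors was carried by a pair of TAC libraries, and against the third it was small. The endothelial markers grouped the libraries in the same way, their median log2 fold change being -0.65, with an unadjusted p under 0.05 for 8 of 10, all lower, and their part in the result was not tested. The lists of 10 fibroblast, 10 macrophage and 10 smooth muscle or pericyte markers had median log2 fold changes of -0.20, -0.22 and -0.09. The 10 cardiomyocyte markers had a median of 0.04, with 5 higher and 5 lower values, and this split depended on the scaling. After the length correction described below the median was 0.22 (8 higher, 2 lower), and under quantile normalization 0.32 (9 higher, 1 lower). Under median centring it was -0.01 (5 higher, 5 lower). Without TAC+EMPA replicate 4, the library high in skeletal muscle genes, the median of the tissue factors was 0.79. In that fit 7 higher and 1 lower tissue factor had an unadjusted p under 0.05, beside 1751 and 1423 of all genes tested.

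**Figure D3:**
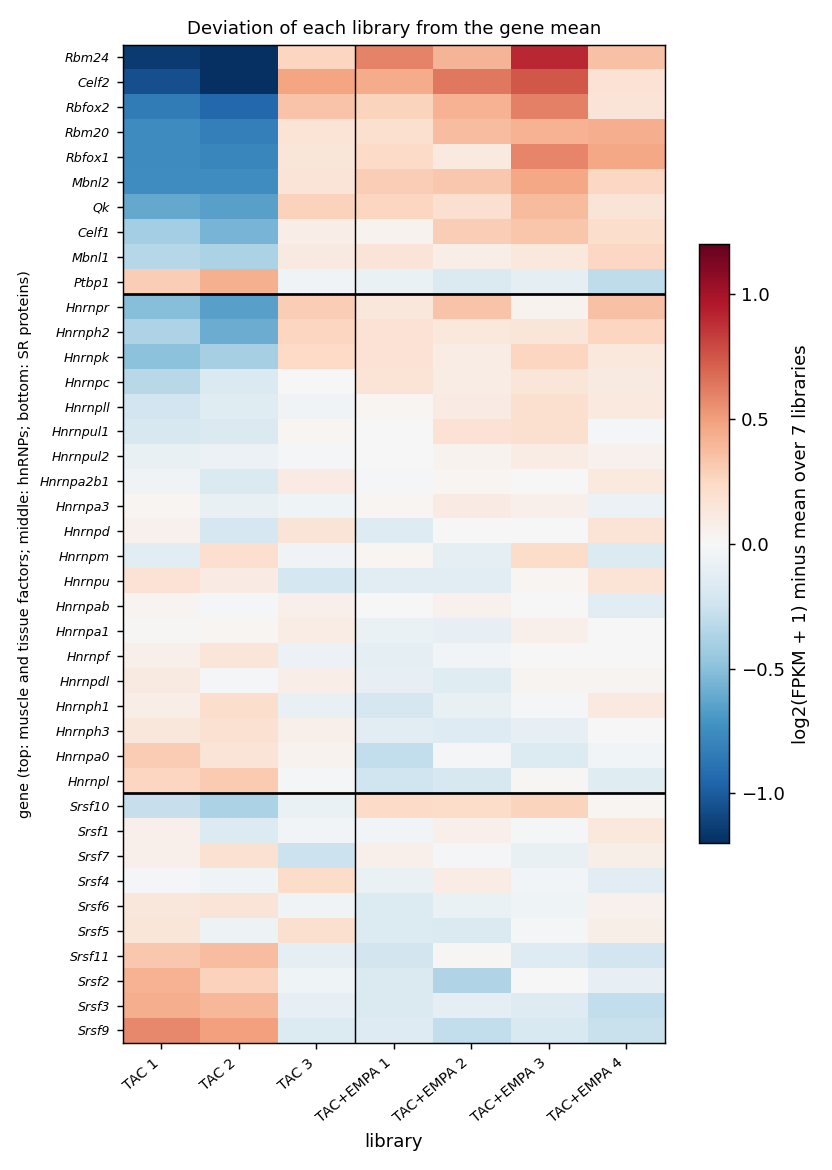
Deviation of log2(FPKM + 1) from the gene mean over 7 libraries (colour scale from -1.2, blue, to 1.2, red) for the 40 splicing factors tested in the 3 TAC and 4 TAC+EMPA libraries, with tissue factors at the top, hnRNPs in the middle and SR proteins at the bottom. TAC replicates 1 and 2 are blue in 9 of 10 tissue factors and TAC replicate 3 has the colours of TAC+EMPA, while most general factors are pale throughout.

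Within each library the mean log2(FPKM + 1) of the tissue factors was set against that of the general factors. The difference was -1.17, -1.23 and -0.33 in TAC and -0.21, -0.22, -0.09 and -0.31 in TAC+EMPA. It was thus lower in every TAC library than in any TAC+EMPA library, with TAC replicate 3 close to TAC+EMPA replicate 4. The mean of the general factors itself stayed between 4.93 and 5.01 in all 7 libraries. On the first principal component of the 40 members, which held 91.1% of their variance, the values were -2.58, -2.89 and 0.75 in TAC and ran from 0.91 to 1.49 in TAC+EMPA.

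Among the SR proteins, Srsf10 was the only one with a higher level in TAC+EMPA at an unadjusted p under 0.05. SRSF10 is an atypical member that becomes a repressor when it loses its phosphates, and its loss in mice disturbs calcium handling in the heart. Its level was 7.40, 6.83 and 8.67 FPKM in TAC and 10.9, 10.9, 11.3 and 9.36 FPKM in TAC+EMPA. The groups did not overlap, and unlike in the tissue factors TAC replicate 3 stayed nearer to the other TAC libraries. The log2 fold change was 0.43 (SE 0.11, limma adjusted p = 0.115, exact permutation p = 0.0286, n = 3 and 4), and against the TAC libraries one by one it was 0.46, 0.56 and 0.26 (0.51 without TAC replicate 3).

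Srsf3, Srsf9, Srsf2 and Srsf11 had lower levels. Srsf3, a small SR protein needed for cardiomyocyte proliferation and for contraction genes in mice, stood at 26.8, 26.1 and 18.2 FPKM in TAC and at 17.2, 18.1, 17.5 and 15.7 FPKM in TAC+EMPA. Its groups touched without overlapping, since TAC replicate 3 was just above TAC+EMPA replicate 2. The log2 fold change was -0.43 (SE 0.15, limma adjusted p = 0.117, exact permutation p = 0.0286, n = 3 and 4), and it was -0.60 without TAC replicate 3 and -0.08 against TAC replicate 3 alone.

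Srsf9, a small SR protein with a short arginine-serine tail, stood at 14.99, 14.1 and 8.60 FPKM in TAC and at 8.68, 7.74, 8.47 and 7.95 FPKM in TAC+EMPA, with the lowest log2 fold change of the members at -0.52 (SE 0.18, limma adjusted p = 0.117). TAC replicate 3 was inside the range of TAC+EMPA. Srsf2, also known as SC35 and a marker of nuclear speckles, was the most abundant SR protein, with 82.1, 74.4 and 59.1 FPKM in TAC and 54.2, 47.4, 61.6 and 57.5 FPKM in TAC+EMPA (log2 fold change -0.37, SE 0.15, limma adjusted p = 0.132). Its locus overlaps Mfsd11 and Mettl23 on the other strand, at means of 12.8 and 23.0 FPKM. Srsf11 stood at 24.6, 25.4 and 18.0 FPKM in TAC and at 16.5, 19.6, 17.3 and 16.4 FPKM in TAC+EMPA (log2 fold change -0.35, SE 0.14, limma adjusted p = 0.136). In Srsf9, Srsf2 and Srsf11 TAC replicate 3 was the lowest TAC library and overlapped with TAC+EMPA, and without it the log2 fold changes were -0.76, -0.50 and -0.50.

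The remaining SR proteins showed no difference beyond the spread. Srsf1, the founding member of the family and a regulator of Camk2d splicing in the developing heart, stood at 33.0 ± 2.66 FPKM in TAC (SD, n = 3) and 34.8 ± 1.93 FPKM in TAC+EMPA (SD, n = 4), and its log2 fold change was 0.08 (SE 0.10). Srsf7 stood at 8.48 ± 1.46 and 8.46 ± 0.486 FPKM, a log2 fold change of 0.01 (SE 0.12). Srsf4, Srsf5 and Srsf6 had log2 fold changes of -0.09, -0.16 and -0.15, with limma adjusted p between 0.295 and 0.525. Srsf4, at a mean of 5.79 FPKM, overlaps Gm12992 on the other strand, at 4.28 FPKM, so that its values are uncertain.

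Of the 20 hnRNPs, 10 had higher and 10 had lower values. An unadjusted p under 0.05 was found for 2 higher and 3 lower members, beside 19% and 14.7% of all genes tested. Neither share was clearly above the background. After the correction for transcript length described below the counts were 1 and 3, beside 2026 and 1918 of all 12391 genes. Hnrnpc, whose product binds uridine tracts in nascent transcripts, stood at 46.5, 52.0 and 58.8 FPKM in TAC and at 66.1, 62.5, 64.9 and 63.4 FPKM in TAC+EMPA. The groups did not overlap, and the log2 fold change was 0.29 (SE 0.10, limma adjusted p = 0.119). Hnrnpll, a paralog of Hnrnpl best known for Cd45 splicing in lymphocytes, stood at 5.84, 6.25 and 6.79 FPKM in TAC and at 7.16, 7.59, 8.15 and 7.68 FPKM in TAC+EMPA. Here too the groups did not overlap, with a log2 fold change of 0.25 (SE 0.09, limma adjusted p = 0.118), and in both genes the exact permutation p was 0.0286 (n = 3 and 4). Against TAC replicates 1, 2 and 3 alone the log2 fold change was 0.34, 0.25 and 0.15 for Hnrnpll and 0.46, 0.30 and 0.12 for Hnrnpc. Both were thus smallest against TAC replicate 3. Without TAC replicate 3 they were 0.29 and 0.38. When TAC replicate 1 or 2 was left out instead, 0 hnRNPs were higher at an unadjusted limma p under 0.05, beside 774 and 870 of all genes tested.

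Hnrnpl, Hnrnph3 and Hnrnpa0 were lower in TAC+EMPA. Hnrnpl, which binds CA repeats, stood at 77.3, 80.1 and 63.5 FPKM in TAC and at 54.3, 56.2, 65.0 and 58.2 FPKM in TAC+EMPA (log2 fold change -0.32, SE 0.12, limma adjusted p = 0.121). TAC replicate 3 was below TAC+EMPA replicate 3, so that the groups overlapped. Hnrnph3, a small member of the family that binds G tracts, stood at 15.5, 16.0 and 14.7 FPKM in TAC and at 12.7, 12.4, 13.03 and 14.0 FPKM in TAC+EMPA (log2 fold change -0.22, SE 0.08, limma adjusted p = 0.125). Hnrnpa0, whose gene has 1 exon, stood at 22.8, 20.3 and 18.8 FPKM in TAC and at 14.7, 17.9, 16.2 and 17.8 FPKM in TAC+EMPA (log2 fold change -0.29, SE 0.11, limma adjusted p = 0.125). In the last pair the groups did not overlap, with an exact permutation p of 0.0286 (n = 3 and 4), and TAC replicate 3 was the lowest TAC library in both. Without it the log2 fold changes of Hnrnpl, Hnrnph3 and Hnrnpa0 were -0.43, -0.25 and -0.36.

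A few hnRNPs showed the library pattern of the tissue factors. Hnrnpr, which binds AU-rich and 3′ untranslated sequences, stood at 9.85, 8.84 and 18.0 FPKM in TAC and at 16.1, 18.6, 14.9 and 18.8 FPKM in TAC+EMPA (log2 fold change 0.51, SE 0.23, limma adjusted p = 0.161). Hnrnph2, the X-linked partner of Hnrnph1, stood at 11.7, 9.88 and 18.6 FPKM in TAC and at 17.5, 16.9, 17.1 and 18.6 FPKM in TAC+EMPA (log2 fold change 0.41, SE 0.19, limma adjusted p = 0.172). In both genes TAC replicate 3 was as high as the TAC+EMPA libraries. Hnrnpk, a poly(C)-binding protein chosen here after its values were seen, had the same order, with 150.0, 160.5 and 250.1 FPKM in TAC and 238, 225, 253 and 230.5 FPKM in TAC+EMPA. Without TAC replicate 3 the log2 fold changes of Hnrnpr, Hnrnph2 and Hnrnpk were 0.80, 0.66 and 0.61, and after the length correction 0.25, 0.30 and 0.31. The corrected value of Hnrnpr rests on a listed transcript of 21452 bases, by far the longest of the members. Whether that isoform was the one expressed was not tested.

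Hnrnph1, the hnRNP with the highest mean over all 7 libraries (in TAC+EMPA Hnrnpk and Hnrnpa2b1 were higher) and a G-tract binder that can favour or repress exons, stood at 235 ± 24.0 FPKM in TAC (SD, n = 3) and 217 ± 20.5 FPKM in TAC+EMPA (SD, n = 4), and its log2 fold change was -0.12 (SE 0.12). Hnrnpdl, which regulates its own splicing, stood at 28.1 ± 1.32 and 26.1 ± 1.71 FPKM, a log2 fold change of -0.11 (SE 0.09). Hnrnpul2 had groups that did not overlap, but the log2 fold change was only 0.10 (SE 0.08, limma adjusted p = 0.349) and turned to -0.04 after the length correction. The other hnRNPs (Hnrnpul1, Hnrnpa1, Hnrnpa2b1, Hnrnpa3, Hnrnpab, Hnrnpd, Hnrnpf, Hnrnpm and Hnrnpu) had log2 fold changes between -0.08 and 0.20 and limma adjusted p of 0.206 or more. Among these Hnrnpm lies in a locus shared with March2 on the same strand, at a mean of 68.4 FPKM, and Hnrnpu overlaps Cox20 on the other strand, at 43.7 FPKM, so that their values are uncertain.

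**Figure D4:**
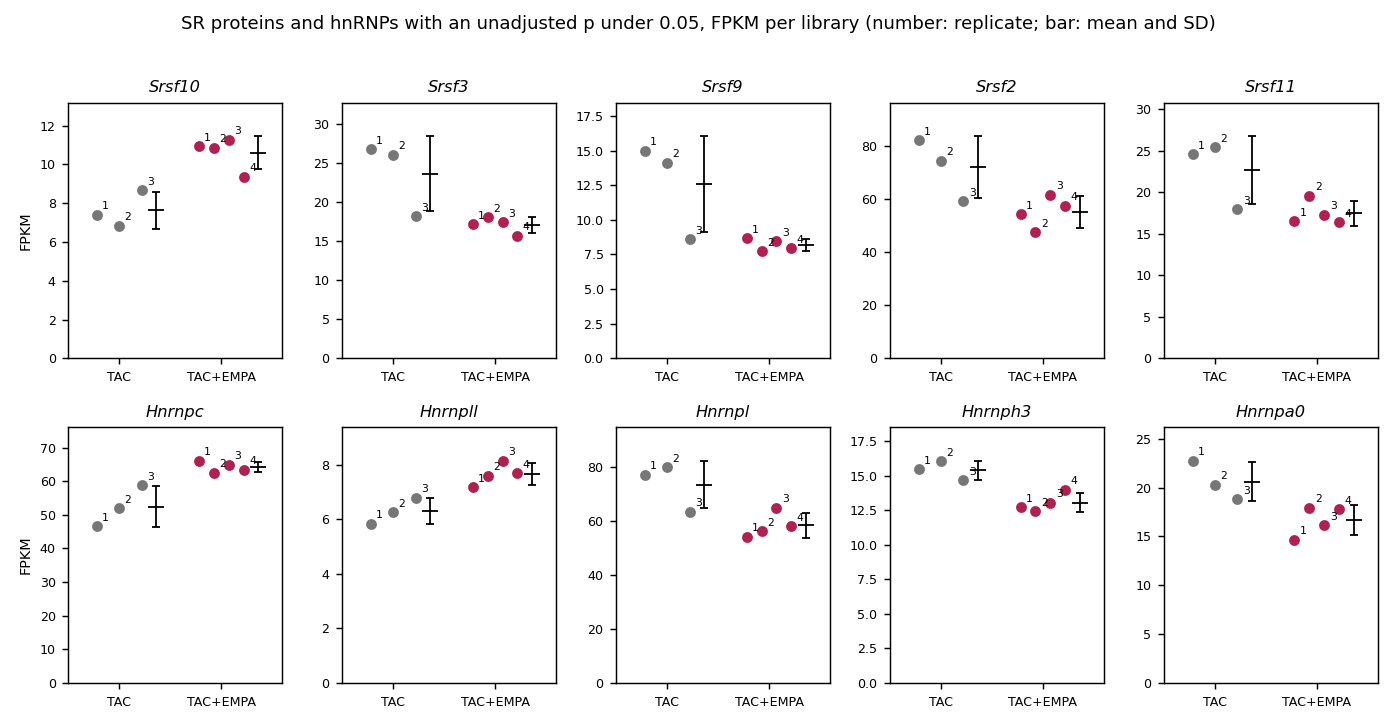
FPKM of the 5 SR proteins and 5 hnRNPs with an unadjusted limma p under 0.05 in each library (grey, TAC replicates 1 to 3; red, TAC+EMPA replicates 1 to 4), with the mean and SD of each group as a bar beside its points, each panel on its own axis from 0. The points of the groups are separate for Srsf10, Hnrnpc and Hnrnpll, which are higher in TAC+EMPA, and for Srsf3, Hnrnph3 and Hnrnpa0, which are lower, and they overlap through TAC replicate 3 in the other 4 panels.

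Long transcripts differed between the libraries as a whole, and the tissue factors are long. The median length of the longest coding transcript was 5273.5 bases in the tissue factors, 2799.5 bases in the general factors and 2898 bases in all genes tested, and the tissue factors spanned a median of 156 kb of genome against 10.4 kb and 21.5 kb. Across 12372 genes, the deviation of a library from the gene mean had a Spearman correlation with transcript length of -0.31 and -0.22 in TAC replicates 1 and 2, of 0.16 in TAC replicate 3 and of 0.17 to 0.32 in TAC+EMPA. The correlation of the log2 fold change with length was 0.29 across these genes and 0.63 across the 40 members, given as a description, since genes of one library share its RNA and are not independent. After each library was corrected for its trend on length, the median log2 fold change was 0.66 in the tissue factors (7 higher and 1 lower with an unadjusted p under 0.05) and -0.09 in the general factors (2 higher and 7 lower). In that fit 2026 higher and 1918 lower genes of all 12391 tested had an unadjusted limma p under 0.05. Rbm24, with a transcript of 3086 bases, kept most of its value (1.25), and Rbm20, Mbnl2 and Ptbp1 were at 0.69, 0.65 and -0.47. Mbnl1 and Qk were reduced to 0.21 and 0.39, with unadjusted limma p of 0.0812 and 0.0643. The libraries also differed by the share of G and C bases (GC) in the same transcript, and no correction for GC was made. Its Spearman correlation with the library deviations was 0.27 in TAC replicates 1 and 2 and -0.15 in TAC replicate 3. In TAC+EMPA it ran from -0.32 to -0.14. With the log2 fold change it was -0.28 across the 12372 genes. Median GC was 45.8% in tissue factors, 44.8% in general factors and 50.3% in all genes tested. RNA quality values per library were not used here, and the part of RNA quality in these trends was not tested.

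**Figure D5:**
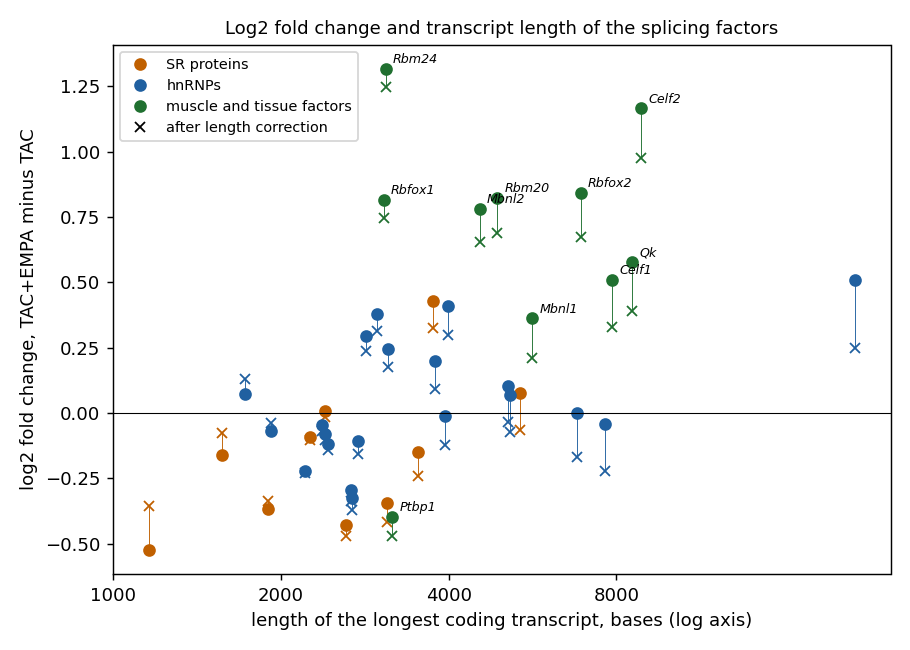
Log2 fold change of FPKM + 1, TAC+EMPA minus TAC, against the length in bases of the longest coding transcript (log axis) for the 40 members tested, with filled circles for the values as fitted and crosses for the values after the length correction, joined by a line. The tissue factors other than Ptbp1 stay above 0 after the correction, from 0.21 for Mbnl1 to 1.25 for Rbm24.

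The promoters of the 3 tissue factors whose groups did not overlap and for which RefSeq gives an entry are shown, as members that differed in opposite directions. Each runs 5′ to 3′ from 250 bases before to 50 bases after the RefSeq start of the gene, on the plus strand of GRCm38.p6, at chr13:46418050-46418349 for Rbm24, chr14:120275419-120275718 for Mbnl2 and chr10:79854182-79854481 for Ptbp1. Capitals mark a GC box (GGGCGG, or CCGCCC on the other strand), the site of Sp1-like factors.
Rbm24: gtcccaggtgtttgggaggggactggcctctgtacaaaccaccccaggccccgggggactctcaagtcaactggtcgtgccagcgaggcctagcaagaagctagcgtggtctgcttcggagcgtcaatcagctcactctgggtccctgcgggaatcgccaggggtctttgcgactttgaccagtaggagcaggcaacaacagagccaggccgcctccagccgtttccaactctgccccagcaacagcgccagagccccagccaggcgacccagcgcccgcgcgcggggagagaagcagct
Mbnl2: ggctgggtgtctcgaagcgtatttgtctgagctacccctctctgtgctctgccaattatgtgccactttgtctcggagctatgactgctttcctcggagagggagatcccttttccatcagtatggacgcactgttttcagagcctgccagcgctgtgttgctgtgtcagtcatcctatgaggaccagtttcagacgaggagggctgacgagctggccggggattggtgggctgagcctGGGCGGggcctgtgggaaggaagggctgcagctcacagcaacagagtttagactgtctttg
Ptbp1: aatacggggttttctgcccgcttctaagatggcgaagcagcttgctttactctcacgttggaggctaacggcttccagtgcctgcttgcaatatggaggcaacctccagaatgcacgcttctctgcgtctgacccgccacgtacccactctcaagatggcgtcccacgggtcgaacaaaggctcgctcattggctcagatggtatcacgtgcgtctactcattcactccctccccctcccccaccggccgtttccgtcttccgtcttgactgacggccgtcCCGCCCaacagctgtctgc

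A GC box was found in 30 of the 37 members with a RefSeq promoter, in 24 of 29 general and 6 of 8 tissue factors, beside 35.7% of 32851 promoters of the same length. Rbm24 had none, and Mbnl2 and Ptbp1 had 1 each. An E-box (CANNTG, read on both strands at once since it is palindromic), the core motif of myogenic bHLH factors, was found in 26 of the 37, in 20 of 29 general and 6 of 8 tissue factors, beside 72.3% of all promoters. In the sequences shown there were 2 in Rbm24, 0 in Mbnl2 and 3 in Ptbp1. The dinucleotide CG occurred 18, 10 and 22 times in these promoters against a median of 7 over all promoters. A match is given as a description of the letters, and neither motif separated the tissue from the general factors.

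Other parts of the splicing machinery were examined as lists. Of 21 SR kinases and SR-related proteins, an unadjusted p under 0.05 was reached by 3 higher and 0 lower genes, beside 19% and 14.7% of all genes, so that the share was not above the background, and the median log2 fold change was -0.09 (1 higher and 2 lower after the length correction, and 1 and 0 without TAC replicate 1 or 2 or TAC+EMPA replicate 3). The kinase Dyrk1a stood at 8.24 ± 1.78 FPKM in TAC (SD, n = 3) and 12.3 ± 0.542 FPKM in TAC+EMPA (SD, n = 4), a log2 fold change of 0.54 (SE 0.13, limma adjusted p = 0.115). The SR protein kinase Srpk2 and the coactivator Srrm1 had log2 fold changes of 0.43 and 0.27, or 0.27 and 0.17 after the length correction, with unadjusted limma p of 0.0681 and 0.172. Clk1, a kinase whose own transcript retains introns, showed the widest spread, with 39.7, 48.3 and 10.9 FPKM in TAC and 17.5 to 20.3 FPKM in TAC+EMPA. TAC replicate 3 was here below TAC+EMPA and not beside it. The speckle proteins Son and Srrm2 had log2 fold changes of -0.39 and -0.54, with TAC replicate 3 at the level of TAC+EMPA.

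Of 42 core spliceosome genes, 7 higher and 9 lower ones had an unadjusted p under 0.05 (5 and 14 under quantile normalization, 3 and 5 after the length correction), beside 19% and 14.7% of all genes, with a median of -0.14. Without TAC replicate 1 there were 1 and 0, without TAC replicate 2 there were 3 and 0, and without a TAC+EMPA library there were 3 to 6 and 3 to 5. Snrpe, Snrpf and Snrpd2, which encode Sm proteins of the snRNP ring, had log2 fold changes of -0.52, -0.47 and -0.50, which became -0.26, -0.24 and -0.39 after the length correction, with unadjusted limma p of 0.0529, 0.0581 and 0.0338. The helicase Dhx15, the U2 snRNP factor Sf3b2 and the tri-snRNP bridge Prpf6 had values of 0.31, 0.30 and 0.25, or 0.25, 0.22 and 0.18 after the length correction, the last with an unadjusted limma p of 0.0723. In these 6 genes the groups did not overlap except in Snrpd2, where TAC replicate 3 was at 22.8 FPKM and the highest TAC+EMPA library at 23.1 FPKM.

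Of 42 other splicing regulators, 10 were below the filter, and of the 32 tested 4 were higher and 1 lower, below the 19% and 14.7% of all genes, with a median of 0.05 (3 and 3 after the length correction, with a median of -0.01, and 0 and 1 without TAC replicate 1). Rbm38, a paralog of Rbm24, stood at 43.5, 45.2 and 93.2 FPKM in TAC and at 82.4 to 131 FPKM in TAC+EMPA, a log2 fold change of 0.98 (SE 0.30, limma adjusted p = 0.115), and its groups overlapped through TAC replicate 3. Ptbp3, a paralog of Ptbp1, stood at 9.74, 12.4 and 8.61 FPKM in TAC and at 6.45 to 7.19 FPKM in TAC+EMPA, without overlap (log2 fold change -0.52, SE 0.12, limma adjusted p = 0.115). Ptbp2, another paralog of Ptbp1, was named here after its values were seen, so that no p is given for it. It stood at 4.79, 6.46 and 6.39 FPKM in TAC and at 6.60 to 7.94 FPKM in TAC+EMPA (log2 fold change 0.26, SE 0.12), also without overlap. The paralogs of Ptbp1 thus lay on both sides. Fxr1 had a log2 fold change of 0.56, and Ewsr1 and Tia1 had values of -0.24 and -0.26, with unadjusted limma p of 0.0645 and 0.0849.

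Finally, 18 heart genes with well-known regulated exons were read at the level of the gene. An unadjusted p under 0.05 was found for 13 higher and 0 lower genes, beside 19% and 14.7% of all genes (4 higher without TAC replicate 1 or 2, 7 without TAC+EMPA replicate 3), and the median log2 fold change was 0.57, or 0.45 after the length correction. Ttn, the giant sarcomere spring and main target of RBM20, stood at 26.995, 24.05 and 33.2 FPKM in TAC and at 39.1 to 47.1 FPKM in TAC+EMPA (log2 fold change 0.57, SE 0.13, limma adjusted p = 0.115), and for this very long transcript the log2 fold change after the length correction was 0.22. Ryr2, the calcium release channel, stood at 25.4, 23.7 and 82.2 FPKM in TAC and at 102 to 117 FPKM in TAC+EMPA, a log2 fold change of 1.53 (SE 0.40). Enah, an actin regulator, had a log2 fold change of 0.77 (SE 0.19). TAC replicate 3 was nearer to TAC+EMPA in 16 of these 18 genes. Isoforms and exon use of these genes were not measured.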

How the data were processed

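Gene expression was measured by RNA sequencing of poly(A) RNA, with a stranded library kit, from the hearts of 3 TAC and 4 TAC+EMPA mice. Reads were aligned by the authors with TopHat2 2.0.13 (build GRCm38), and the deposited values are FPKM for each gene in each library from Cuffdiff (Cufflinks 2.2.1), fragments relative to the length of the transcript and the size of the library. The option for scaling between libraries and the use of strand in counting are not given in the sources used here. The deposited table also holds group means, fold changes, p-values and q-values of the authors' own comparison, and further tables hold enriched terms, none of which was used. Groups and replicate numbers come from the sample labels. According to the study the samples came from different animals.

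FPKM values were not counts, so that limma 3.58.1 in R 4.3.3 was fitted to log2(FPKM + 1) for the 12391 genes that averaged 1 FPKM or more over the libraries, with a trended prior variance, two-sided, and Benjamini-Hochberg adjustment over all of them. Single members were also compared by an exact permutation test over all 35 assignments. Its p is printed above only where it was at the minimum of 0.0286. The exact permutation p was 0.0571 for Rbfox1, Celf1, Mbnl1, Srsf9 and Hnrnpul2. For Celf2, Rbfox2, Srsf2, Srsf11 and Hnrnpl it was 0.0857, and for Qk and Hnrnpr 0.114. The members and lists were chosen with earlier results of these data known. Named were all 10 tissue factors, of the SR proteins and of the hnRNPs the 4 members of smallest p in each direction and the most abundant one, and of each other list up to 3 genes in each direction, of which some are not reported here. All 198 symbols of the other lists were matched by symbol. Of the 8 T and B cell markers 0 passed the filter.

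Relative depth came from genes of 1 exon, where 99.1% or more of the low values lay within 0.1 of whole fragments. Gene models came from GENCODE M21, matched for 99.8% of genes, and promoters from RefSeq. With minimap2 2.31, 11 members shared a stretch of at least 300 bases at 95% identity with a transcript of another gene. In 4 of them (Srsf2, Hnrnpab, Hnrnpf and Hnrnpm) such a gene was above 0.1 FPKM. In that order Mettl23, Phykpl, 4933440N22Rik and March2 were found, which overlap the member's own locus and are not separate copies. Hnrnpf also matched Gm28901, at a mean of 0.225 FPKM. Library trends on length were removed by loess with a span of 0.5. The fits were tested on simulated data. The alternatives covered the pseudocount, the filter, quantile normalization, median centring, the length correction, a replicate block, library weights, the prior, the class of Ptbp1 and each library left out in turn. No protein sequences were used.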

Additional observations from a re-analysis of the deposited data

How the results depend on the processing

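No gene passed an adjusted p under 0.05 with all libraries weighted equally, whichever pseudocount, filter or scaling was used. With library weights, in which TAC replicate 3 received 0.121, 3310 genes were higher and 2551 lower, among them 15 and 8 members. When each library was left out in turn, the higher genes ran from 0 to 3694 and the lower genes from 0 to 2930, the higher members from 0 to 16 and the lower members from 0 to 8, and the highest counts came from leaving out TAC replicate 3. At an unadjusted p under 0.05 the members ran from 4 to 16 higher and from 0 to 9 lower over the same fits. All genes ran from 774 to 4051 higher and from 853 to 3309 lower. Without TAC replicate 1 or 2, 4 and 5 members were higher and 0 were lower, beside 774 and 870 higher and 853 and 867 lower of all 12391 genes. Without TAC+EMPA replicate 4, 9 members were higher and 4 lower, beside 1751 and 1423 of all genes.

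Same-numbered libraries of the groups had correlations of 0.10, 0.08 and -0.03 in their deviations from the group means. Those with different numbers ran from -0.17 to 0.06. Whether the replicate numbers pair the samples cannot be decided from these values, since TAC replicate 3 weighs heavily in the TAC deviations. With a replicate block, which leaves TAC+EMPA replicate 4 without weight in the comparison, 9 members were higher and 0 were lower at an unadjusted p under 0.05. In that fit 1839 higher and 1314 lower genes of all 12391 passed.

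The median log2 fold change of the tissue factors stayed between 0.62 and 1.10 in all of these alternatives and that of the general factors between -0.089 and -0.024, where -0.089 followed from the length correction. The median of the SR kinases ran from -0.11 to 0.045 as libraries were left out, that of the core spliceosome from -0.20 to -0.060 and that of the other regulators from 0.034 to 0.13, the last being -0.0096 with the length correction and 0.12 with library weights. Fragments per gene are approximate, since they rest on 1 transcript per gene.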

Other observations

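Ratios of members within a library do not depend on its overall scaling and are given as values. Rbm24 to Ptbp1 was 0.857, 0.663 and 2.97 in TAC replicates 1, 2 and 3 and 3.86, 3.61, 4.91 and 3.84 in TAC+EMPA replicates 1 to 4. The ratio of Hnrnpk to Hnrnpl, general factors of the same family, was 1.94, 2.01 and 3.94 in TAC and 4.39, 4.002, 3.90 and 3.96 in TAC+EMPA, so that TAC replicate 3 lay within the range of TAC+EMPA. Srsf3 to Srsf10 was 3.62, 3.82 and 2.10 in TAC and 1.57, 1.66, 1.55 and 1.68 in TAC+EMPA, without overlap. By contrast, Mbnl1 to Celf1, which oppose each other on many exons, was 1.67, 1.83 and 1.61 in TAC and 1.72, 1.35, 1.36 and 1.63 in TAC+EMPA, and these values overlapped. Mbnl2 to Mbnl1 was 1.83, 1.88 and 2.49 in TAC and 2.67, 2.88, 3.06 and 2.41 in TAC+EMPA, with TAC replicate 3 above the lowest TAC+EMPA library. These pairs were chosen with the values of their members known, and no test was made on them.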
